A study of Mus musculus with 9 samples.

Results

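The Meis, Pbx and Pknox genes encode homeodomain proteins of the TALE class, which bind DNA together with HOX proteins. The members described are *Meis1*, *Meis2*, *Meis3*, *Pbx2*, *Pbx3*, *Pbx4*, *Pknox1* and *Pknox2*. They were taken by symbol, and are 8 of the 24736 genes in the expression table. The cells were caudal epiblast-like cells (CEpiLCs), a culture model of the epiblast region from which spinal cord and trunk mesoderm arise. Mouse embryonic stem cells were grown for 48 h in N2B27 medium with 10 ng/ml bFGF and 5 µM LGK974, which blocks WNT secretion, and then up to 72 h with CHIR99021 added, a GSK3 inhibitor that activates WNT signalling. Wild-type cells (WT), cells mutant for *Cdx1*, *Cdx2* and *Cdx4* (CdxKO, Cdx1/2/4-/-) and cells mutant for *T*, also called Brachyury (T/BraKO, T/Bra-/-), were each sequenced as 3 biological replicates, and received the same factors. The methods derive all lines from the XY HM1 TetON line that served as WT, and keep the stem cells on feeder fibroblasts that were removed by adhesion before differentiation. They do not state how many lines or clones stood for each mutant genotype.

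PBX proteins bind HOX proteins directly and raise the DNA affinity and selectivity of the pair. MEIS and PKNOX (also called PREP) proteins bind PBX proteins, keep them in the nucleus and join HOX-PBX complexes on DNA. In embryos *Meis1* and *Meis2* are known for their expression in lateral mesoderm, limb, heart and hindbrain, where retinoic acid raises their transcription. CDX proteins activate central and posterior Hox genes in the caudal epiblast, and T is needed there for posterior mesoderm. The comparisons below ask whether the transcripts of the cofactors differed when either regulator was mutated.

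In the mm10 mouse genome (GENCODE M21 gene spans on GRCm38) the members lie on separate loci. *Meis1* spans chr11:18879817-19018985 on the minus strand, *Meis2* chr2:115863064-116065839 on the minus strand and *Meis3* chr7:16175090-16186504 on the plus strand. *Pbx2* spans chr17:34591266-34597400 (plus), *Pbx3* chr2:34171457-34373142 (minus) and *Pbx4* chr8:69832491-69872292 (plus). *Pknox1* spans chr17:31564734-31607693 (plus) and *Pknox2* chr9:36890982-37147407 (minus). *Pbx2* is the only member whose span meets that of another gene in the table, *Gpsm3*, on the same strand.

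*Meis2* and *Pbx2* were the members whose transcripts differed between genotypes in the test described below, so stretches from their promoters are shown. RefSeq promoter windows of 300 bases on GRCm38.p6, reaching 250 bases before the annotated start, were found for 5 members, and none was found for *Pbx3*, *Pknox1* and *Pknox2*. The stretches are given from 5′ to 3′ on the strand of the gene, and each lies before the RefSeq start and outside every GENCODE exon. GENCODE also has transcripts that start further upstream, so that both stretches fall inside the gene spans given above. The *Meis2* stretch is chr2:116064722-116064801 on the minus strand and the *Pbx2* stretch is chr17:34592009-34592258 on the plus strand. Capitals mark the letters TTTAT, a core of CDX binding sites, and CTTTG, a core of TCF binding sites, on either strand, so that ATAAA is TTTAT on the other strand.
Meis2: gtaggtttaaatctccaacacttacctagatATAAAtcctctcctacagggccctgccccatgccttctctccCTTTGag
Pbx2: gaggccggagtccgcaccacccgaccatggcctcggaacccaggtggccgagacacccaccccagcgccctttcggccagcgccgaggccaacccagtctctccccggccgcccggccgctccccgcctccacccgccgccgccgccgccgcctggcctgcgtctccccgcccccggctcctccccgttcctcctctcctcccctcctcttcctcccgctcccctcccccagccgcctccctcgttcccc

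The *Meis2* stretch had a GC content of 47.5% and held 1 match to each of the marked words. The *Pbx2* stretch had a GC content of 77.6% and held neither. Over the whole windows, TTTAT occurred 2 times for *Meis2*, 1 time for *Pbx4* and not at all for *Meis1*, *Meis3* and *Pbx2*, and 40% of the 32851 mouse windows held it. CTTTG occurred 2 times for *Meis2*, 1 time each for *Meis1* and *Meis3* and not at all for *Pbx2* and *Pbx4*, and 53.9% of all windows held it. The longer CDX word TTTATG, found in 11.9% of windows, was in none of the 5 member windows. The T-box word AGGTGT (13.7% of windows), the MEIS word TGACAG (19.2%) and the PBX-HOX word TGATNNAT (8.85%) were in none of them either. Words this common describe the letters of a window and no binding.

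The 9 libraries held between 25124344 and 34705361 estimated counts. A count of 3 therefore stood for 0.0864 to 0.119 CPM, far below every member. The lines carried marks of their labels and also differed beyond them. *T* fell from 12243 ± 2181 (SD, n = 3) normalised counts in WT to 2295 ± 563 in T/BraKO, and *Cdx4* from 118 ± 52.2 to 1.64 ± 0.338 in CdxKO. *Cdx1* (272 ± 68.7) and *Cdx2* (1031 ± 515) transcripts were lower in CdxKO than in WT (536 ± 90.7 and 4199 ± 1740) but still present. The caudal epiblast gene *Nkx1-2* was abundant in all libraries, with 4902 to 11263 normalised counts. *Hprt*, a purine salvage enzyme that none of the labels names, had 3590 to 4138 normalised counts in T/BraKO and at most 28.1 in the other genotypes. The Y-linked *Ddx3y* had 0 counts in every CdxKO library and 1664 to 2754 in the others. *Hprt* thus set T/BraKO apart from WT, and *Ddx3y* set CdxKO apart, although the methods derive all lines from the XY line used as WT. The origin of the lines was not tested. A mutation and any other difference between the lines therefore cannot be told apart in what follows.

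All 8 members were detected in all 9 libraries, but at levels that differed widely between genes. On the TPM scale, which accounts for transcript length, *Pbx2* (46.5 ± 4.31, n = 3) and *Pbx3* (40.7 ± 2.97) were the most abundant members in WT, and their replicates overlapped. *Meis3* (24.9 ± 7.05) and *Pknox2* (23.2 ± 6.28) followed and also overlapped. *Pknox1* (8.51 ± 1.79), *Pbx4* (4.81 ± 1.02), *Meis2* (2.37 ± 0.62) and *Meis1* (0.957 ± 0.217) were lower, each separate from the next in all replicates. Thus *Meis3*, not *Meis1* or *Meis2*, supplied most of the Meis transcripts in WT CEpiLCs.

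*Pbx2* and *Pbx3* were the highest members in the mutants as well, whereas the place of *Meis2* changed. In CdxKO *Meis2* averaged 7.16 ± 3.16 TPM and overlapped both *Pknox1* (7.72 ± 0.999) above it and *Pbx4* (5.37 ± 0.405) below it. In T/BraKO *Meis2* averaged 0.97 ± 0.0557 TPM and overlapped *Meis1* (0.877 ± 0.266), the lowest member in every genotype. *Pbx2* and *Pbx3* both averaged 36.8 TPM in T/BraKO, and *Pbx2* stood above *Pbx3* in all CdxKO libraries (50.7 ± 4.08 against 42.8 ± 1.61). *Meis3* and *Pknox2* overlapped in every genotype.

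**Figure D1:**
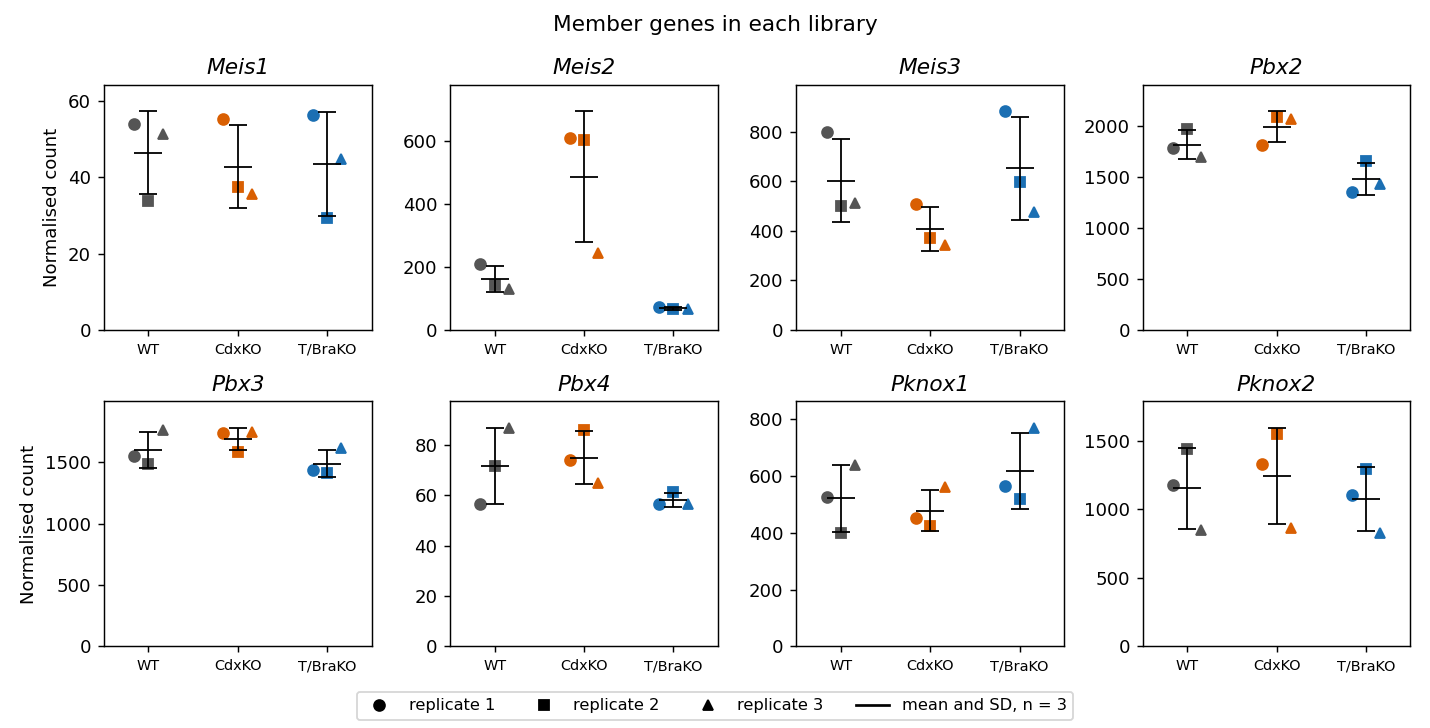
Normalised counts (y axis, from 0, one scale per gene) of the 8 members in the 3 WT, 3 CdxKO and 3 T/BraKO libraries, with symbols for the replicate number and black bars for the mean and SD. *Meis2* separates the genotypes without overlap, from 65 to 72.8 in T/BraKO over 131 to 208 in WT to 245 to 609 in CdxKO, and *Pbx2* is lowest in T/BraKO.

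*Meis2*, a MEIS protein gene of limb, heart and neural tissue, was the member that changed most. Its normalised counts were 208, 142 and 131 in the WT libraries, 609, 602 and 245 in the CdxKO libraries and 72.8, 65 and 66.4 in the T/BraKO libraries. The genotypes did not overlap, although the third CdxKO library lay closer to WT than to the other CdxKO libraries. *Meis2* was 3.02-fold higher in CdxKO than in WT (log2 fold change 1.60, SE 0.34, 95% interval 0.93 to 2.26, adjusted p = 9.2e-04, DESeq2). It was 2.36-fold lower in T/BraKO than in WT (log2 fold change -1.24, SE 0.35, 95% interval -1.92 to -0.55, adjusted p = 0.0404).

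The change against WT went in opposite directions in the mutants. Compared directly, *Meis2* was 7.13-fold higher in CdxKO than in T/BraKO (log2 fold change 2.83, SE 0.35, 95% interval 2.16 to 3.51, adjusted p = 1.35e-13). In this comparison the WT libraries do not enter the difference, so it tests whether the effects of the mutations differ. Paired by replicate number, the log2 difference between CdxKO and WT was 1.55, 2.08 and 0.90, and that between T/BraKO and WT was -1.52, -1.13 and -0.99. The fit with the replicate number as a block kept all these calls (adjusted p = 2.85e-10, 1.7e-05 and 1.42e-30 in the same order).

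The *Meis2* calls against WT depended on the fit. With genotype alone, and without CdxKO replicate 1 the CdxKO value was 1.40 with an adjusted p of 0.0704 in DESeq2. The T/BraKO call was lost without WT replicate 1 (-1.01, adjusted p = 0.528, DESeq2), WT replicate 2 (-1.32, 0.0894) or T/BraKO replicate 1, 2 or 3 (-1.29, -1.21 and -1.22, with 0.127, 0.146 and 0.183), at folds between -1.01 and -1.32. With the replicate block both calls held in all 9 fits that left out a library, at an adjusted p of at most 2.37e-04 for CdxKO and 0.0155 for T/BraKO. edgeR called neither (adjusted p = 0.261 and 0.334) unless the block was in its fit (0.00469 and 0.0179). The direct difference between the mutants was called in each of these fits.

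**Figure D2:**
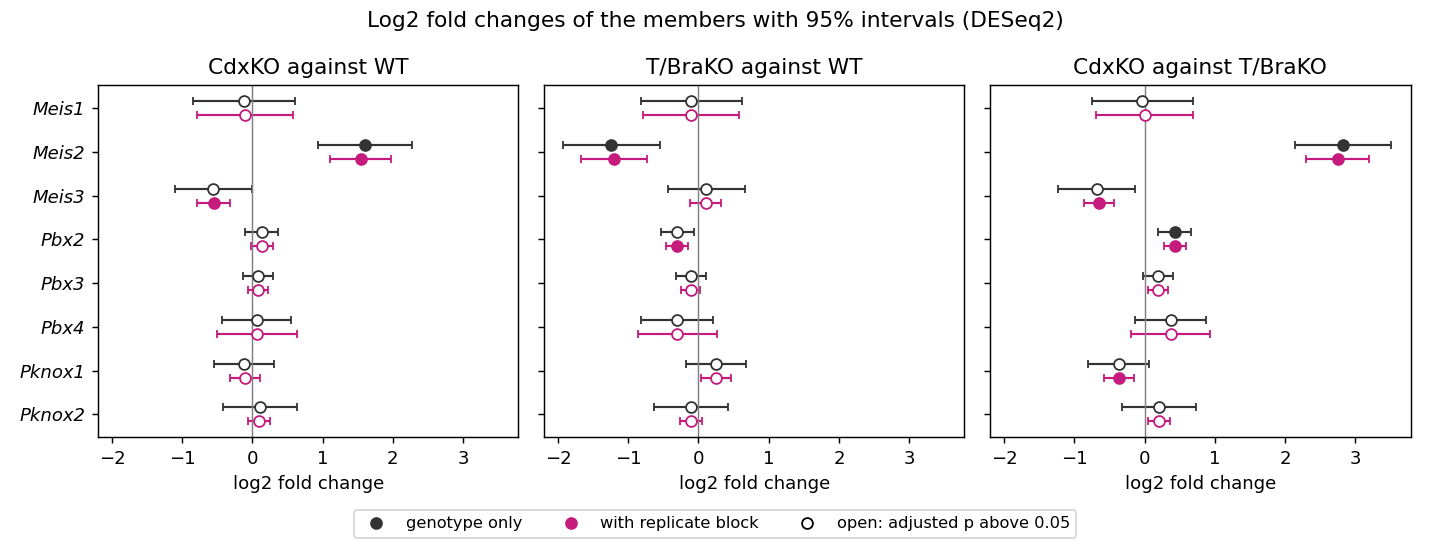
Log2 fold changes of the 8 members (x axis) with 95% intervals in the 3 comparisons, from DESeq2 with genotype only (dark) or with a replicate block (pink); filled points had an adjusted p of at most 0.05. *Meis2* lies at 1.60, -1.24 and 2.83 with genotype only, while every other point lies within 0.68 of 0.

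*Meis3* was the most abundant of the Meis genes and did not follow *Meis2*. Its normalised counts were 797, 501 and 511 in WT, 510, 371 and 343 in CdxKO and 883, 596 and 477 in T/BraKO. The first replicate was the highest in each genotype, and the genotypes overlapped. With genotype alone *Meis3* was not called in any comparison (CdxKO against WT, log2 fold change -0.56, SE 0.28, 95% interval -1.11 to -0.02, adjusted p = 0.925, DESeq2). For CdxKO against T/BraKO the interval was -1.22 to -0.13. Both intervals excluded no change, but they are not adjusted for the number of genes tested. With the replicate block *Meis3* was lower in CdxKO than in WT (-0.55, adjusted p = 1.33e-04) and than in T/BraKO (-0.65, adjusted p = 5.45e-07, against 0.233 without the block). Within the numbered pairs *Meis3* was lower in CdxKO than in WT in all 3, by log2 differences of -0.64, -0.43 and -0.57. These blocked calls held in all 9 fits that left out a library, with an adjusted p of at most 0.0241 against WT. T/BraKO and WT did not differ in either fit (0.11, 95% interval -0.43 to 0.65).

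*Meis1*, known for its roles in blood and heart development, was near the lower end of what these libraries measured well. It had 54, 33.9 and 51.3 normalised counts in WT, 55.2, 37.5 and 35.7 in CdxKO and 56.3, 29.3 and 44.8 in T/BraKO. The genotypes overlapped fully and no fit called a difference. The 95% interval of the log2 fold change was -0.84 to 0.60 for CdxKO against WT and -0.81 to 0.62 for T/BraKO against WT, so a change of the size seen for *Meis2* in CdxKO lay outside it.

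Because the Meis genes differed in direction, their balance was set side by side within each library, a description chosen after the values were seen. *Meis3* TPM divided by *Meis2* TPM was 10.8, 9.77 and 10.9 in WT. It was 2.33, 1.72 and 3.93 in CdxKO and 34.6, 26.7 and 19.9 in T/BraKO. The ratios of the genotypes did not overlap. *Meis2* held 8.04 to 9.01% of the summed *Meis1*, *Meis2* and *Meis3* TPM in WT, 19.5 to 35.6% in CdxKO and 2.73 to 4.59% in T/BraKO. The sum itself overlapped between genotypes, at 23.5 to 37.2 TPM in WT, 18.1 to 31.1 in CdxKO and 20.9 to 37.8 in T/BraKO.

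**Figure D3:**
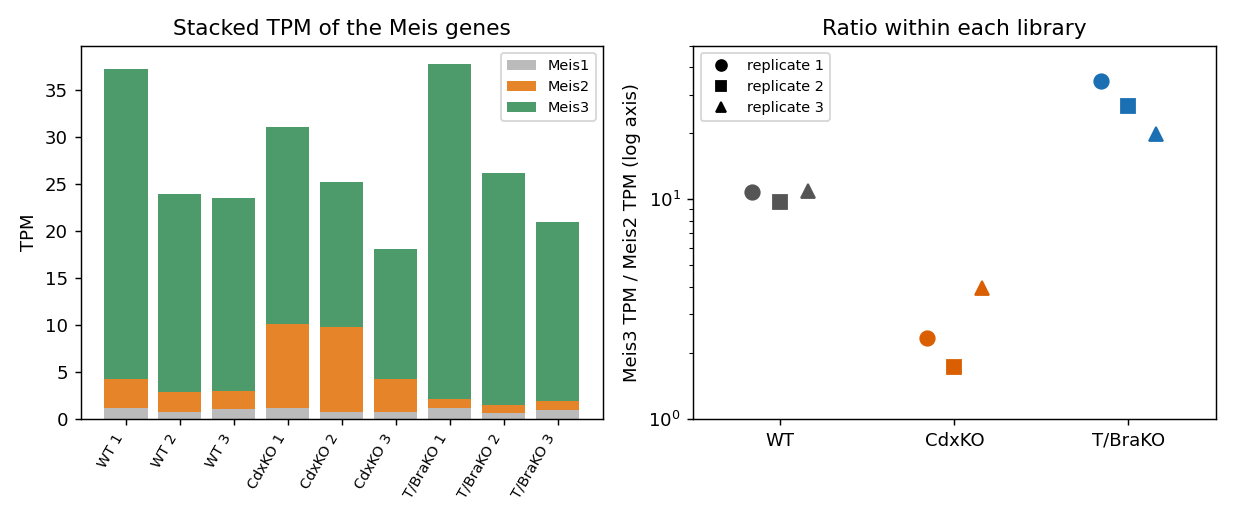
Left, TPM of *Meis1*, *Meis2* and *Meis3* stacked for each of the 9 libraries; right, *Meis3* TPM divided by *Meis2* TPM on a log axis, with 1 point per library and symbols for the replicate number. *Meis3* is the largest part of every bar, and the ratio falls from 9.77 to 10.9 in WT to 1.72 to 3.93 in CdxKO and rises to 19.9 to 34.6 in T/BraKO.

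Among the Pbx genes, which encode the direct HOX partners, *Pbx2* was the one that differed. It had 1787, 1974 and 1702 normalised counts in WT, 1818, 2091 and 2076 in CdxKO and 1354, 1655 and 1431 in T/BraKO. All T/BraKO libraries lay below all others, while CdxKO and WT overlapped. *Pbx2* was 1.35-fold higher in CdxKO than in T/BraKO (log2 fold change 0.43, SE 0.12, 95% interval 0.20 to 0.66, adjusted p = 0.0102, DESeq2). Against WT the T/BraKO value was -0.30 (SE 0.12, adjusted p = 0.481), and with the replicate block the same difference was called (adjusted p = 0.00235). The pairs gave -0.40, -0.25 and -0.25. CdxKO did not differ from WT in either fit (0.13, 95% interval -0.10 to 0.36).

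The direct *Pbx2* call without the block was lost without CdxKO replicate 2 or 3 (adjusted p = 0.105 and 0.115, DESeq2) and without T/BraKO replicate 1 or 3 (0.151 and 0.105), and edgeR gave 0.0878. With the block it was called in all 9 fits that left out a library, at an adjusted p of at most 7.27e-04. The blocked call against WT was lost in 4 of these 9 fits, those without WT replicate 1 or 2 or T/BraKO replicate 1 or 3, with an adjusted p of up to 0.112. *Gpsm3*, whose span meets that of *Pbx2*, moved the same way, with 49.4 to 55.1 normalised counts in WT, 55.2 to 65.2 in CdxKO and 33.1 to 34.8 in T/BraKO. How reads were divided between the overlapping genes was not tested; the *Gpsm3* counts were small beside those of *Pbx2*.

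*Pbx3* had 1548, 1489 and 1766 normalised counts in WT, 1737, 1588 and 1750 in CdxKO and 1435, 1413 and 1613 in T/BraKO. The genotypes overlapped, and DESeq2 called no difference with or without the block. The largest was between the mutants, at a log2 fold change of 0.19 (95% interval -0.02 to 0.39, adjusted p = 0.574, and 0.0707 with the block). edgeR with the block called it, with an adjusted p of 0.0279. The intervals against WT, -0.13 to 0.29 for CdxKO and -0.32 to 0.10 for T/BraKO excluded fold changes as large as those of *Meis2*.

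*Pbx4*, a Pbx gene known mainly from testis, was low. It had 56.3, 71.6 and 86.7 normalised counts in WT, 74, 85.7 and 64.9 in CdxKO and 56.3, 61.4 and 56.5 in T/BraKO. The CdxKO libraries were all above the T/BraKO libraries, but the difference was not called (log2 fold change 0.37, 95% interval -0.14 to 0.87, adjusted p = 0.724, DESeq2).

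*Pknox1*, a PBX partner that early embryos require, had 525, 398 and 636 normalised counts in WT, 450, 422 and 559 in CdxKO and 563, 518 and 768 in T/BraKO. The third replicate was the highest in each genotype and the genotypes overlapped. With genotype alone no comparison was called. With the block *Pknox1* was lower in CdxKO than in T/BraKO (log2 fold change -0.36, adjusted p = 0.0146, against 0.614 without it, DESeq2), and lower in all 3 pairs (-0.32, -0.29 and -0.46). That call was lost in 4 of the 9 blocked fits that left out a library, those without CdxKO replicate 1 or 3 or T/BraKO replicate 2 or 3, with an adjusted p of up to 0.174.

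*Pknox2* followed the replicate number rather than the genotype. It had 1178, 1437 and 847 normalised counts in WT, 1327, 1546 and 862 in CdxKO and 1104, 1290 and 825 in T/BraKO. In every genotype the second replicate was the highest and the third the lowest, and the replicate numbers did not overlap. DESeq2 called no genotype difference, and the interval for CdxKO against WT was -0.41 to 0.63. edgeR with the block called the difference between the mutants (adjusted p = 0.0301), where DESeq2 with the block gave 0.20 and an adjusted p of 0.0908.

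The share of variation that went with genotype and with replicate number was computed for each member from log2(normalised count + 1). For *Pknox2*, 92.4% of the sum of squares went with the replicate number and 6.07% with genotype. *Meis1* (79.5%) and *Pknox1* (65.9%) also varied mostly with the replicate number. *Meis2* was the reverse, with 88.7% for genotype and 6.15% for replicate number, and *Pbx2* had 75.8% for genotype. The medians over 12316 expressed genes were 58.4% for replicate number and 21.7% for genotype. *Pknox1* and *Pknox2* moved against each other over the 9 libraries (Pearson r = -0.90, a description over libraries that share genotypes and replicate numbers). The ribosomal precursor *Rn45s* held 1.69 to 4.21% of counts in the first replicates and at most 0.992% in the others. Its part in these differences was not tested.

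**Figure D4:**
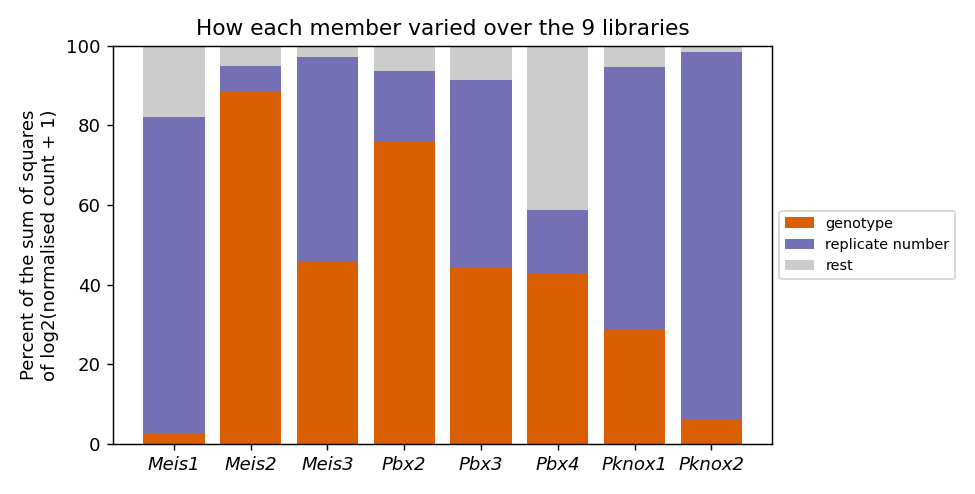
Percent of the sum of squares of log2(normalised count + 1) over the 9 libraries that went with genotype, with replicate number and with neither, stacked for each member. *Meis2* (88.7%) and *Pbx2* (75.8%) vary mostly with genotype, and *Pknox2* (92.4%) varies mostly with replicate number.

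Counted over the family, 1 of 8 members was called in CdxKO against WT (*Meis2*, higher), and 0.693% of all genes tested were called there. In T/BraKO against WT 1 of 8 was called (*Meis2*, lower), beside 1.08% of all genes. Between the mutants 2 of 8 were called (*Meis2* and *Pbx2*, higher in CdxKO), beside 3.48%. With the replicate block the counts were 2 (*Meis2* higher, *Meis3* lower), 2 (*Meis2* and *Pbx2* lower) and 4 of 8 (*Meis2* and *Pbx2* higher, *Meis3* and *Pknox1* lower). The shares of all genes called with the block were 5.31%, 9.68% and 14.6%. Groups did not overlap for 1, 2 and 3 of the 8 members in the same order, beside 9.83%, 9.24% and 15.1% of all genes. The median log2 fold change of the members was 0.07, -0.11 and 0.20, and that of all genes tested was 0.00, 0.00 and -0.01. Without the block edgeR called 0, 0 and 1 members, and 1, 2 and 3 members passed an unadjusted p of 0.05 in it.

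The genes most like a called member were ranked by Pearson correlation over the 9 libraries among 12315 others. For *Meis2* they were *Actr2*, a subunit of the ARP2/3 actin nucleator (r = 0.984), *Vim*, the intermediate filament protein of mesenchymal cells (0.961), and *Chfr*, a ubiquitin ligase (0.958). *Vim* had 16229 to 20603 normalised counts in WT, 24378 to 35045 in CdxKO and 10698 to 13067 in T/BraKO, without overlap. *Actr2* spanned a narrower range, from 15309 in T/BraKO to 19027 in CdxKO. For *Pbx2* the closest were *Plekhf2* (0.972), *Edem1* (0.969) and *Tmem63a* (0.962). These values describe 9 libraries of shared genotype and replicate number.

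The remaining TALE genes, the Irx and Tgif genes and *Mkx*, gave no called difference in any comparison (0 of 9 in DESeq2 and in edgeR without the block). At an unadjusted p of 0.05, 2, 0 and 1 of the 9 passed in DESeq2 and 2, 0 and 2 in edgeR. With the block *Irx3*, a patterning gene of the caudal neural plate, was lower in CdxKO (-1.09) and in T/BraKO (-0.84) than in WT. *Mkx* was higher in CdxKO than in T/BraKO (0.57).

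Among the HOX partners of the cofactors, many central and posterior genes were lower in CdxKO. Of 18 Hox genes of paralogue groups 5 to 10, 9 of 16 tested were lower in CdxKO than in WT, and the median log2 fold change was -4.42 (-2.98 with genes at the count floor set to their bound). Among them *Hoxb8* fell from 743 ± 643 normalised counts to 4.34 ± 2.76 (log2 fold change -7.45, SE 1.04, adjusted p = 1.05e-09, DESeq2). Their summed TPM was 16 to 196 in WT, 1.04 to 2.84 in CdxKO and 34.3 to 242 in T/BraKO. Of 12 Hox genes of groups 1 to 4, 5 were lower in CdxKO than in WT, among them *Hoxa3* (log2 fold change -4.12, adjusted p = 5.67e-04). These counts depended on the fit. Without the block edgeR called 0 of either list in CdxKO against WT. There 9 of the posterior and 7 of the anterior genes passed an unadjusted p of 0.05 in it. With the block edgeR called 9 of the posterior and 8 of the anterior genes. Without WT replicate 1 DESeq2 with genotype alone called 5 posterior and 2 anterior genes. The anterior count was 3 without WT replicate 3 and 2 without CdxKO replicate 2 or 3. With genotype alone none of either list was called in T/BraKO against WT, where 1 of 12 and 0 of 18 passed an unadjusted p of 0.05 in DESeq2 and edgeR called 0 and 0. With the block *Hoxb1* was lower (-1.39, adjusted p = 3.32e-10) and *Hoxb6* higher (1.02, adjusted p = 0.00146, DESeq2) in T/BraKO than in WT. Between the mutants 9 of the posterior list were lower in CdxKO, and 1 of the anterior list was higher and 5 were lower.

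Of 18 retinoic acid pathway genes, 1 was called in CdxKO against WT, the receptor gene *Rarg* (log2 fold change -0.52, SE 0.10, adjusted p = 4.7e-05, DESeq2). *Rarg* was also lower in CdxKO than in T/BraKO (-0.70, adjusted p = 7.15e-11), and the retinol dehydrogenase gene *Rdh10* was higher (0.66, adjusted p = 0.0263). Without the block none was called in T/BraKO against WT, where 0 passed an unadjusted p of 0.05 in DESeq2 or edgeR. With the block the retinoid receptor gene *Rxra* was called there (0.24, adjusted p = 0.0238, DESeq2). *Aldh1a2*, the main retinoic acid producing enzyme of the trunk, had 257 ± 211 normalised counts in CdxKO and 142 ± 72.7 in WT. That difference was called with the block alone (log2 fold change 0.72, adjusted p = 0.0428, against 1 without it). With the block 2 of the list were higher and 2 lower in CdxKO against WT, and 3 were higher and 3 lower in CdxKO against T/BraKO. *Aldh1a2*, with 86.4 ± 32 normalised counts in T/BraKO, was among those higher between the mutants (1.37, adjusted p = 5.77e-07, DESeq2 with the block). Without the block that difference had an adjusted p of 0.105.

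Markers of lateral and cardiac mesoderm, tissue in which *Meis2* is known to be expressed, had a summed level in the same order as *Meis2*, although single markers did not all follow. The summed TPM of 12 such markers was 22.4, 17.9 and 17.5 in WT, 31.9, 27.6 and 26.2 in CdxKO and 14.5, 12.9 and 9.68 in T/BraKO. None of the 12 was at 0 in all libraries of a genotype, and 3, 2 and 1 of them were at or under 3 counts in all libraries of WT, CdxKO and T/BraKO. With genotype alone 1 of 12 was called against WT in each mutant. Called or not, 10 of 12 values were above WT in CdxKO and 6 of 12 in T/BraKO, with a median log2 fold change of 0.58 and -0.08 (0.58 and 0.00 with genes at the count floor set to their bound) beside 0.00 for all genes. The cardiac and extraembryonic mesoderm gene *Hand1* was higher in CdxKO than in WT (194 ± 27 against 35.6 ± 10.3 normalised counts, log2 fold change 2.44, adjusted p = 2.58e-14, DESeq2). *Isl1*, a gene of heart and limb progenitors, was scarcer in T/BraKO than in WT (5.61 ± 3.69 against 50.7 ± 5.91, log2 fold change -3.15, adjusted p = 2.45e-06). *Hand1* itself was not lower in T/BraKO (0.24, adjusted p = 1). Between the mutants *Isl1* (4.15), *Hand1* (2.20) and *Bmp4* (1.11) were higher in CdxKO. With the block *Hand1* and *Bmp4* (0.59, adjusted p = 0.024, DESeq2) were higher in CdxKO than in WT. In T/BraKO *Isl1*, *Bmp4* (-0.55, 0.0395) and *Kdr* (-0.99, 2.89e-07) were lower than in WT with it. *Kdr* was also higher in CdxKO than in T/BraKO with the block (0.52, 0.0179). Against WT *Kdr* was not higher in CdxKO (413 ± 108 against 580 ± 188 normalised counts, not called). The part of these markers in the *Meis2* difference was not tested. In these bulk samples a change in the number of cells of a type and a change in RNA per cell cannot be told apart.

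Fibroblast markers, listed because feeder cells also express Meis genes, overlapped between genotypes in sum. The summed TPM of 10 markers was 42.5 to 74.3 in WT, 51.4 to 90.8 in CdxKO and 40.2 to 61.6 in T/BraKO, and none was at 0 in all libraries of a genotype. In CdxKO against WT 0 of 10 were called (3 passed an unadjusted p of 0.05 in DESeq2, and in edgeR 2 passed it and 0 were called). With the block 3 were called, *Col1a1* (0.94, adjusted p = 6.6e-13) and *Col1a2* (0.43, 0.0326) higher and *Thy1* (-0.73, 9.84e-04, DESeq2) lower. *Postn* (log2 fold change -2.58, adjusted p = 0.0491) and *Pdgfrb* (-0.91, adjusted p = 0.0464, DESeq2) were lower in T/BraKO than in WT, and the block added *Col1a1* (-0.96, adjusted p = 1.05e-12) and *Col1a2* (-0.81, 3.38e-07). *Col1a1* and *Col1a2* thus stood in the same order as *Meis2* in the blocked fit. The collagen gene *Col3a1* did not, at -0.32 in CdxKO and -0.11 in T/BraKO against WT, neither of them called. Between the mutants *Postn* (3.89), *Col1a1* (1.91) and *Col1a2* (1.26) were higher in CdxKO and *Thy1* (-1.20) was lower. The part of these markers in the *Meis2* difference was not tested.

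Of 12 neural progenitor markers none was called in any comparison with or without the block. Without it none passed an unadjusted p of 0.05 in DESeq2 or edgeR, and with it 0, 0 and 1 passed in DESeq2 and 1, 2 and 0 in edgeR. Their summed TPM was 156 to 228 in WT, 184 to 245 in CdxKO and 180 to 277 in T/BraKO. Of 12 paraxial mesoderm markers 0 were called in CdxKO against WT (1 at an unadjusted p of 0.05 in DESeq2 and in edgeR), and with the block *Hes7* was lower (-0.90, adjusted p = 4.04e-04, DESeq2). *Hes7* was also lower in T/BraKO than in WT with the block (-0.90, adjusted p = 2.87e-04, DESeq2). Their summed TPM was 85.6 to 145 in WT, 58.3 to 167 in CdxKO and 41.4 to 61.8 in T/BraKO, so it was low in T/BraKO as *Meis2* was, and overlapped between WT and CdxKO. In T/BraKO *Msgn1* (-5.58), *Tbx6* (-3.41) and *Dll1* (-1.05) were lower than in WT and *Pcdh8* (1.40) was higher, and the first of these were higher in CdxKO than in T/BraKO (5.99, 3.23 and 1.14). Of 8 endoderm markers none was called in DESeq2 or edgeR without the block, and 0, 0 and 1 passed an unadjusted p of 0.05 in each. With the block *Foxa2* fell below WT in T/BraKO (-1.40, adjusted p = 0.0187) and was higher in CdxKO than in T/BraKO (1.83, adjusted p = 4.21e-04, DESeq2).

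**Figure D5:**
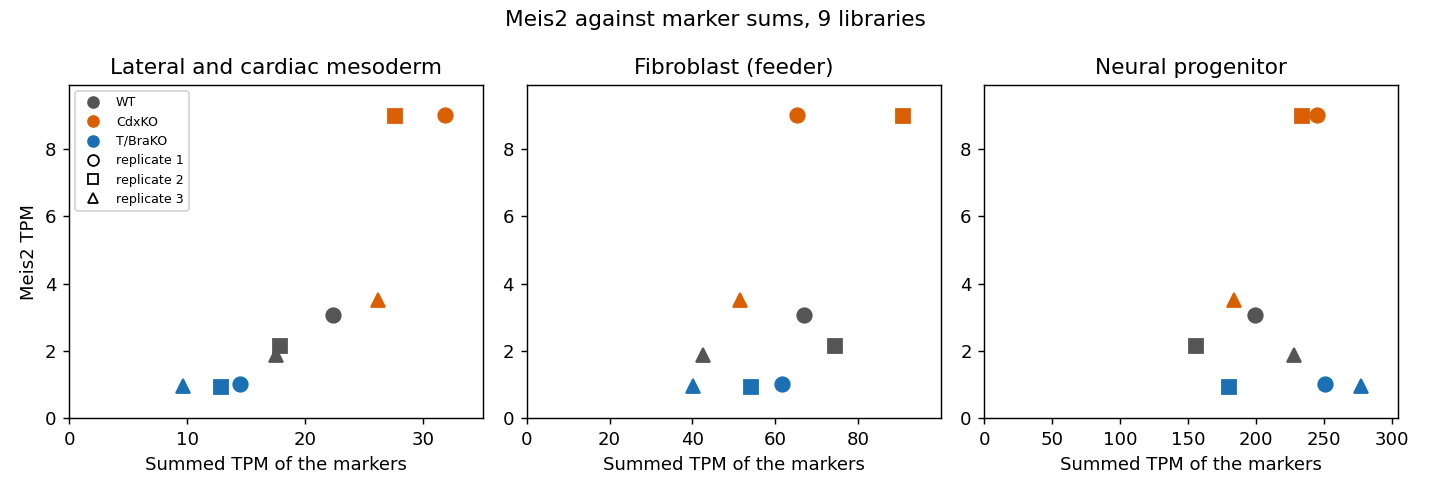
*Meis2* TPM (y axis) against the summed TPM of 12 lateral and cardiac mesoderm markers, 10 fibroblast markers and 12 neural progenitor markers (x axes), with 1 point per library, colour for genotype and symbol for replicate number. The genotypes stand in the same order on both axes of the first panel, from 9.68 to 14.5 in T/BraKO to 26.2 to 31.9 in CdxKO, and overlap on the x axis of the others.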

How the data were processed

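Poly(A) RNA of 9 cultures was made into KAPA mRNA HyperPrep libraries and read as strand-specific single ends. According to the submitters' processing notes the authors used cutadapt 1.16, STAR 2.5.2a, RSEM 1.3.0 and mm10, and deposited gene-level RSEM expected counts and TPM. RSEM shares reads that match several genes. Between 3.75 and 4% of gene values per library were fractional, but 0 member values were. Counts were rounded and tested with DESeq2 1.42.0 in R 4.3.3 on all 9 libraries with genotype as the term, default size factors, two-sided Wald tests and Benjamini-Hochberg adjustment over all genes tested, called at an adjusted p of at most 0.05. Fold changes are unshrunken and normalised counts are counts divided by size factors. edgeR 4.0.16 (quasi-likelihood test, TMM) and the other settings of the closing section were alternatives, and the scripts were tested on simulated data.

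Same-numbered replicates deviated together from their group means (9 pairs, r = 0.532 to 0.814 over 12316 genes, against -0.69 to 0.134 for 18 pairs of unlike number), so the fit with the replicate number as a block is printed where it changes a call. The labels give the number, but name no shared day. Replicates of a genotype differed beyond sampling noise and all were kept.

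All 8 members were named in every comparison. For each called member the 3 most correlated genes were named among genes averaging 50 or more normalised counts, besides *T* and the Cdx genes. For each list except the Hox lists up to 4 called genes with the largest change were named. In CdxKO against WT the named Hox genes were examples, and *Hoxc8* (-8.61) and *Hoxd4* (-4.34) changed more within their lists. Genes called with the block alone, such as *Irx3*, *Rxra* and *Foxa2*, and *Aldh1a2*, *Hprt*, *Ddx3y*, *Rn45s*, *Gpsm3* and *Nkx1-2*, were added after values were seen. The members and lists were chosen with earlier results of these data known.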

Additional observations from a re-analysis of the deposited data

Results flagged for a closer look

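The effects of the mutations against WT differed for 2 members, by the direct test of CdxKO against T/BraKO, which is a test of the difference between the effects. For *Meis2* the difference was 2.83 on the log2 scale (adjusted p = 1.35e-13, DESeq2), with CdxKO above WT in 3 of 3 numbered pairs and T/BraKO below WT in 3 of 3. For *Pbx2* it was 0.43 (adjusted p = 0.0102, DESeq2), with CdxKO above T/BraKO in 3 of 3 pairs.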

How the results depend on the processing

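Size factors by TMM, a minimum of 10 counts in 3 libraries and fits of the 6 libraries compared left the counts of called members as reported (1 in CdxKO against WT, 1 in T/BraKO against WT and 2 between the mutants). The replicate block gave 2, 2 and 4, edgeR 0, 0 and 1, edgeR with the replicate block 2, 2 and 6, and a threshold of 0.01 gave 1, 0 and 1. Added after the data were seen, the replicate block on the 6 libraries compared gave 2, 2 and 3. Leaving out each library gave 0 to 1, 0 to 1 and 1 to 2, and with the replicate block (also added) 2 to 2, 1 to 2 and 3 to 4. In DESeq2 on all 9 libraries the block changed no other call of a member than those of *Meis3*, *Pbx2* and *Pknox1* given above. In edgeR it also added calls of *Meis2* against WT and of *Pbx3* and *Pknox2* between the mutants. Changes of sign concerned uncalled values near 0. With a library left out, with or without the block, CdxKO against WT ranged from -0.34 to 0.07 for *Meis1*, -0.08 to 0.28 for *Pbx4*, -0.28 to 0.05 for *Pknox1* and -0.08 to 0.32 for *Pknox2*. T/BraKO against WT ranged from -0.32 to 0.12 for *Meis1*, -0.17 to 0.37 for *Meis3* and -0.29 to 0.08 for *Pknox2*. CdxKO against T/BraKO ranged from -0.25 to 0.20 for *Meis1*, and was 0.00 with the replicate block. The cause of these differences was not tested. The planned share of the summed member TPM was not run, since it depends on which genes enter the sum. Replicates may share more than their number, and p-values measure the spread between these cultures. The number of lines per mutant genotype was not stated, so the p-values cannot be read as a spread between independent lines. For *Meis1* and *Pbx4*, with 29.3 to 86.7 normalised counts, changes inside the wide intervals were not detectable at this depth.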
